A study of Mus musculus with 18 samples.

Results

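Conjugating enzymes join glutathione, glucuronic acid or sulfate to a substrate. The members described here were the protein-coding genes whose GENCODE M21 symbol on the mouse build GRCm38 places them among the glutathione S-transferases (GSTs), the microsomal glutathione S-transferases (MGSTs), the UDP-glucuronosyltransferases of the Ugt1a and Ugt2 groups, or the sulfotransferases (SULTs). This rule, which used no measured value, took 65 of the 47729 genes in the count tables: 22 GSTs, 3 MGSTs, 9 Ugt1a genes, 10 Ugt2 genes and 21 SULTs. RNA had been sequenced from epithelial cells that were sorted by FACS from the ileum, the last stretch of the small intestine, of female mice. There were 6 libraries from pregnant, 6 from pseudopregnant and 6 from virgin mice. Pseudopregnancy is the luteal state that follows mating without embryos, so it shares hormones of early pregnancy and lacks a conceptus. All groups had the same chows, RM1 in the experiment and for upkeep, and RM3 while breeding. Strain, age, day of pregnancy and the markers used for sorting are not given in the labels. Nor do the labels say that each library came from its own animal, so every p-value measures the spread between these libraries.

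The small intestine meets dietary chemicals and drugs before the liver does, and conjugation is one of its defences. Cytosolic GSTs add glutathione to reactive electrophiles such as products of lipid peroxidation, and MGSTs do so in membranes. UDP-glucuronosyltransferases sit in the endoplasmic reticulum and use UDP-glucuronic acid, while SULTs work in the cytosol with the sulfate donor PAPS. The 9 Ugt1a genes are alternative first exons that splice to one common set of 3′ exons, whereas most Ugt2 genes are separate copies. Glucuronidation and sulfation also inactivate steroid and thyroid hormones, bilirubin and bile acids.

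In these cells Gstp1, Gstp2, Gsto1, Gsta1, the 3 MGSTs, Ugt2b34, Sult1d1, Sult1b1 and Sult2b1 were abundant, while 16 of 21 SULTs, 5 of 9 Ugt1a genes and 4 of 10 Ugt2 genes were below a low-count filter. Between pregnant, pseudopregnant and virgin mice no member passed adjustment. The alpha class GSTs had the most negative fold changes of the GST classes in both comparisons with virgin mice, and Gsta4, Gsta3, Gstp3, Sult1c2 and Sult1a1 had an unadjusted p under 0.05 in one or both. That made 3 of 38 members (7.89%) in each comparison, against 3.68% of all genes for pregnant and 9.37% for pseudopregnant mice. All of these members were lower, where 1.66 and 2.01% of all genes were called lower. With a covariate for how far long transcripts were represented in each library, 1 and 0 members were called. Of all genes 4.65 and 2.12% were called in those fits. Within groups, Ugt2b34, Sult1b1 and Sult1d1 rose with a score of villus against crypt markers, which made 3 of 38 members (7.89%) against 24.1% of all genes in either direction. Without the highest-scoring library of each group their slopes were 0.30, 0.27 and 0.24 and none of them passed. Nor did any other gene in that fit (0% of all genes).

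Libraries held 24946836 to 37285510 counts. Epcam, which marks epithelium, ranged between 1639 and 3589 CPM (counts relative to library size, scaled between libraries by TMM), and Ptprc, which marks all leukocytes, between 0.198 and 0.638 CPM. Summed over 15 markers each, leukocytes reached 15.8 to 44.3 CPM and stroma, vessels and nerve 7.56 to 18.5 CPM over all libraries. A villus-minus-crypt score, the mean log2 level of 21 absorptive enterocyte markers minus that of 24 proliferation markers, ran from -0.50 to 1.47 in pregnant (median 0.10), from -0.64 to 0.99 in pseudopregnant (median -0.23) and from -0.77 to 1.26 in virgin libraries (median -0.55). Libraries also differed in how far long transcripts were represented. The length slope, the slope of a library's log2 deviations on log2 exonic length over 6364 genes, ran from -0.24 to 0.16 in pregnant (median 0.021), from -0.17 to 0.26 in pseudopregnant (median 0.101) and from -0.25 to 0.079 in virgin libraries (median -0.056). Pregnant replicate 1, pseudopregnant replicate 1 and virgin replicate 2 had the lowest length slope of their groups, and replicate 3 had the highest villus-minus-crypt score in every group.

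The 65 genes together took 0.329 to 0.425% of counts in pregnant, 0.252 to 0.433% in pseudopregnant and 0.347 to 0.453% in virgin libraries. A low-count filter passed 38 of them: 20 GSTs, 3 MGSTs, 4 Ugt1a genes, 6 Ugt2 genes and 5 SULTs. A few genes carried each family. Per kb of exonic length and averaged over the 18 libraries, the highest levels were 275 CPM for Gstp1, 238 for Mgst3, 164 for Gsto1, 157 for Gstp2, 145 for Sult1d1, 139 for Mgst1, 132 for Gsta1, 127 for Sult1b1 and 99.2 for Ugt2b34. In whole transcripts, Ugt2b34 held 11.65% of all conjugating enzyme CPM and 75.5% of that of the Ugt2 genes. Ugt1a7c and Ugt1a1 together held 97.5% of the Ugt1a sum. Sult1d1, Sult1b1 and Sult2b1 held 99.5% of the SULT sum.

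**Figure D1:**
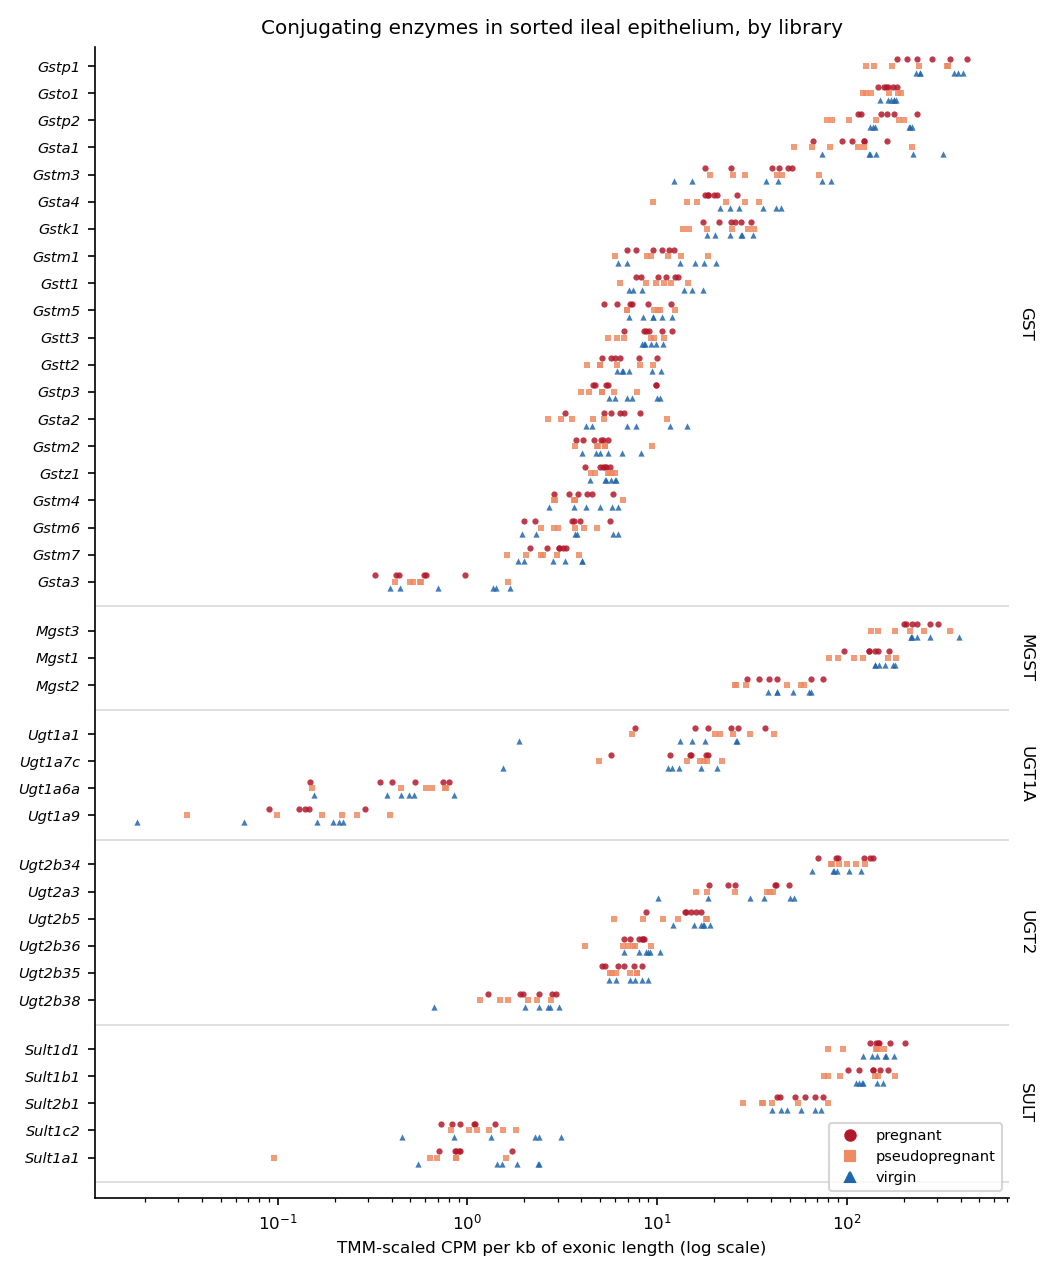
TMM-scaled CPM per kb of exonic length (log axis) of the 38 conjugating enzymes that passed the low-count filter, 1 point per library, by family, with pregnant libraries as circles, pseudopregnant as squares and virgin as triangles. Values of 0, which only Ugt1a9 had, are not drawn. The groups overlap for every gene, and virgin replicate 2 is the lowest point of Ugt1a1 and of Ugt1a7c.

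Among the pi class GSTs, which conjugate electrophiles and also act in stress signalling, Gstp1 (chromosome 19, 4035407 to 4037985, minus strand) ran from 287 to 670 CPM in pregnant libraries (median 399), from 196 to 532 in pseudopregnant libraries (median 322) and from 358 to 633 in virgin libraries (median 475). Gstp2, the neighbouring copy, ran from 127 to 263 CPM in pregnant libraries (median 175), from 87.9 to 222 in pseudopregnant libraries (median 136) and from 147 to 247 in virgin libraries (median 197). In both the pseudopregnant group held the lowest library, replicate 5, and pregnant replicate 1 was the highest, so the groups overlapped. Gstp3, the third copy, ran from 4.17 to 8.96 CPM in pregnant libraries (median 4.96), from 3.63 to 7.12 in pseudopregnant libraries (median 4.64) and from 5.06 to 9.36 in virgin libraries (median 6.49). How reads were split between the copies is uncertain for the first pair: 33.7% of the 50-base stretches of Gstp1 and 54.3% of those of Gstp2 also occur in another gene's transcripts, against 0 for Gstp3. Gsto1, the omega class enzyme that reduces dehydroascorbate and methylated arsenic, held a narrow band from 295 to 375 CPM in pregnant libraries (median 330), from 247 to 393 in pseudopregnant libraries (median 304) and from 305 to 367 in virgin libraries (median 353). Its highest library was 1.59-fold above its lowest.

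Among the alpha class GSTs, Gsta1 (chromosome 9, 78230656 to 78242684, plus strand), whose relatives are induced by electrophiles and antioxidants, ran from 63.6 to 156 CPM in pregnant libraries (median 110.4), from 50.3 to 212 in pseudopregnant libraries (median 93.8) and from 70.7 to 309 in virgin libraries (median 132). The highest library, virgin replicate 1, lay 6.14-fold above the lowest, pseudopregnant replicate 5. Gsta4 (chromosome 9, 78182774 to 78209349, plus strand), the alpha enzyme with the strongest preference for hydroxynonenal, a product of lipid peroxidation, ran from 22.6 to 33.5 CPM in pregnant libraries (median 24.5), from 12.02 to 43.9 in pseudopregnant libraries (median 24.95) and from 27.3 to 56.9 in virgin libraries (median 40.2). Pregnant libraries formed a tight, low band that reached into the virgin range only through replicate 1. Gsta3, which in mice detoxifies the epoxide of aflatoxin, ran from 1.41 to 4.20 CPM in pregnant libraries (median 2.23), from 1.80 to 7.13 in pseudopregnant libraries (median 2.35) and from 1.70 to 7.32 in virgin libraries (median 4.50). Single high libraries set the top of the pseudopregnant group (replicate 6) and of the pregnant group (replicate 2).

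Gsta1 and Gsta2 are near copies, and 90.5% of the 50-base stretches of Gsta1 and 49.8% of those of Gsta2 occur in other genes' transcripts. The gene that shares most with Gsta1 is Gm3776 (75.7%), which is not among the 65 members. For Gsta2 it is Gsta1 (36%). Reads of Gsta1 and Gsta2 may thus have been exchanged with these or other genes, or lost. The promoters of Gsta1 and Gsta2 are shown because their resemblance extends upstream of the RefSeq starts. Each run holds 250 bases before the RefSeq start of the gene and 50 after it (GRCm38.p6), 5′ to 3′ on the gene's strand. Capitals mark the xenobiotic response element core GCGTG. The Gsta2 run lies inside the GENCODE span of that gene (chromosome 9, 78331018 to 78355788, minus strand), downstream of its GENCODE start. Of 311 aligned positions, 74.6% were identical.
Gsta1 (chr9:78230419-78230718, plus strand): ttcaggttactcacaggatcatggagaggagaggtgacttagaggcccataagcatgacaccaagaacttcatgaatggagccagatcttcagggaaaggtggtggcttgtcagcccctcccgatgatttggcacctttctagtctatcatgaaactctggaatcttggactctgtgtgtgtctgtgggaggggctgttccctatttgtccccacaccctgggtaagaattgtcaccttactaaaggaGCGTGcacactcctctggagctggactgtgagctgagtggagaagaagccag
Gsta2 (chr9:78347096-78347395, minus strand): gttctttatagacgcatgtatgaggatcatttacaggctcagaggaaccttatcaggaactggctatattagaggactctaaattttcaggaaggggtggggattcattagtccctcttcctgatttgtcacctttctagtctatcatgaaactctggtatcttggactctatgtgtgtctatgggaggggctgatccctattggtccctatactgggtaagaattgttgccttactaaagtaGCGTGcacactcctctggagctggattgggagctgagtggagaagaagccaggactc
RefSeq promoters were matched for 58 of the 65 members, 70 promoters in all. GCGTG, searched on both strands, occurred in 14 of the 70 (20%) and in 32.4% of all 32841 promoters. The antioxidant response element, searched as TGACNNNGC on both strands, occurred in 4 of the 70 (5.71%, those of Gsta3, Gstm5, Gstm7 and Mgst1) and in 12.4% of all promoters.

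The other 13 tested GSTs were Gsta2, the mu class genes Gstm1 to Gstm7, the theta class genes Gstt1, Gstt2 and Gstt3, the mitochondrial and peroxisomal Gstk1, and Gstz1, which also isomerises maleylacetoacetate in tyrosine breakdown. Gstm3 had the highest mean of these, 52.9 CPM, and spanned 6.76-fold between virgin replicate 2 and virgin replicate 3, both of the same group. Gstz1 was the steadiest, with a 1.45-fold range over all 18 libraries. Of the 50-base stretches of Gstm3, 28.8% occur in other genes' transcripts.

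The membrane enzymes were all abundant. Mgst1, which protects the membranes of the endoplasmic reticulum and mitochondria from lipid peroxides, ran from 196 to 335 CPM in pregnant libraries (median 274), from 163 to 366 in pseudopregnant libraries (median 233) and from 284 to 360.3 in virgin libraries (median 309). Mgst3, a glutathione transferase and peroxidase of the leukotriene C synthase family, ran from 220.3 to 335 CPM in pregnant libraries (median 251), from 147 to 385 in pseudopregnant libraries (median 217) and from 240.1 to 431 in virgin libraries (median 249). Mgst2, which can make leukotriene C, ran from 111 to 277 CPM in pregnant libraries (median 152), from 95.9 to 219.8 in pseudopregnant libraries (median 145) and from 143 to 239.8 in virgin libraries (median 177). The lowest library of all 3 was pseudopregnant replicate 5, and the groups overlapped in each.

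Among the Ugt1a genes, Ugt1a1 (chromosome 1, 88211959 to 88218997, plus strand), the bilirubin conjugating enzyme, ran from 17.1 to 82.2 CPM in pregnant libraries (median 47.9), from 16.5 to 91.9 in pseudopregnant libraries (median 51.9) and from 4.15 to 58.9 in virgin libraries (median 37.1). The highest library, pseudopregnant replicate 2, stood 22.2-fold above the lowest, virgin replicate 2, and 5.58-fold above the next lowest, pseudopregnant replicate 1. Ugt1a7c, whose substrates include planar phenols, ran from 24.2 to 78.3 CPM in pregnant libraries (median 63.3), from 20.9 to 92.5 in pseudopregnant libraries (median 73.2) and from 6.48 to 87.6 in virgin libraries (median 52.7). The range over libraries was 14.3-fold, and 4.42-fold without virgin replicate 2. Ugt1a6a, an enzyme for small phenols, ran from 0.642 to 3.46 CPM in pregnant libraries (median 2.002), from 0.654 to 3.35 in pseudopregnant libraries (median 2.72) and from 0.672 to 3.65 in virgin libraries (median 2.02). Ugt1a9 was near the limit of detection, running from 0 to 0.635 CPM in pregnant libraries (median 0.294), from 0.0726 to 0.854 in pseudopregnant libraries (median 0.427) and from 0.0395 to 0.485 in virgin libraries (median 0.393). In Ugt1a1, Ugt1a7c and Ugt1a6a the 3 lowest libraries of the 18 were pregnant replicate 1, pseudopregnant replicate 1 and virgin replicate 2, those of lowest length slope in their groups. The same 3 were lowest in Gstz1 and in no other tested member. Between 50.3 and 60.6% of the exonic bases of each Ugt1a gene are shared with other Ugt1a genes. How reads over the common exons were assigned is not stated in the sources used here. Ugt1a10 shares 58.1% of its exonic bases but had 4 counts over all libraries, against 34397 for Ugt1a7c. Reads over the common exons were thus not counted for every Ugt1a gene. If they were left out, CPM per kb of full exonic length is too low for this family.

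**Figure D2:**
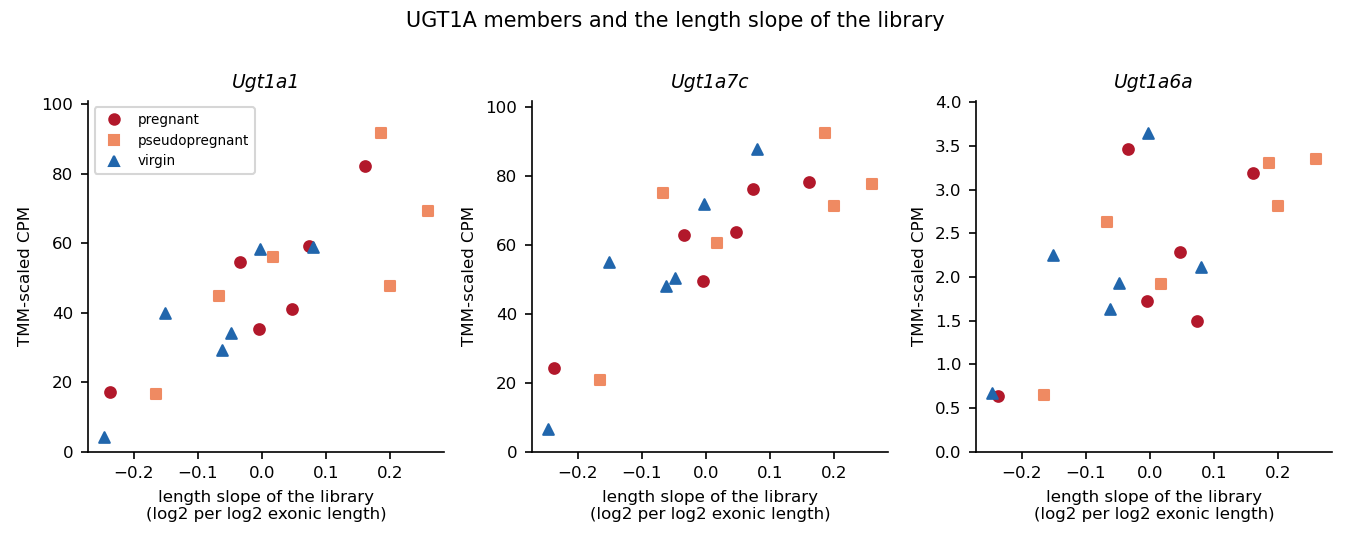
TMM-scaled CPM of Ugt1a1, Ugt1a7c and Ugt1a6a (vertical axes, from 0) against the length slope of each of the 18 libraries (horizontal axis), with groups by colour and symbol. In each panel the lowest points are pregnant replicate 1, pseudopregnant replicate 1 and virgin replicate 2, at length slopes of -0.24, -0.17 and -0.25.

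The promoter of Ugt1a1 is shown with capitals on a motif of HNF1 factors. Its letters, those in capitals, were searched on both strands with any base allowed at 1 position, and here they lie on the strand opposite to the gene. HNF1 factors drive many genes of the liver and the enterocyte.
Ugt1a1 (chr1:88211709-88212008, plus strand): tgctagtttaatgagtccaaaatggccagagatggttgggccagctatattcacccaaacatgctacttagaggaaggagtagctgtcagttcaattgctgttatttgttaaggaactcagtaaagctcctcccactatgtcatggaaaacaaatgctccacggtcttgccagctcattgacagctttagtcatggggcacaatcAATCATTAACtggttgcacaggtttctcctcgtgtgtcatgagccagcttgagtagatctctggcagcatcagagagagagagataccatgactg
This motif occurred in 8 of the 70 promoters (11.4%) and in 0.399% of all 32841. The 8 were those of Ugt1a1, Ugt1a9, Ugt1a10, Sult1d1 and the 4 paralogs Sult2a3, Sult2a4, Sult2a5 and Sult2a6, which share sequence and so are not independent of each other. The 4 Sult2a genes had no count in any library, and Ugt1a10 had 2 counts at most, so the letters occur in front of abundant and of undetected members alike.

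The Ugt2 genes form one cluster of 601.1 kb on chromosome 5 (86889767 to 87490871), and they glucuronidate steroids, bile acids and many drugs. Ugt2b34, at the low-coordinate end, ran from 306 to 591 CPM in pregnant libraries (median 459.9), from 356 to 541 in pseudopregnant libraries (median 414) and from 284 to 514 in virgin libraries (median 376). The next gene, Ugt2b1, starts 9.7 kb away and had 8 counts at most in any library. Ugt2a3 ran from 39.6 to 106 CPM in pregnant libraries (median 71.9), from 34.2 to 86.7 in pseudopregnant libraries (median 67.4) and from 21.5 to 112 in virgin libraries (median 71.5). Ugt2b5 ran from 16.2 to 31.6 CPM in pregnant libraries (median 27.3), from 10.98 to 33.9 in pseudopregnant libraries (median 22.1) and from 22.6 to 35.2 in virgin libraries (median 32.2). Ugt2b36 ran from 13.7 to 17.6 CPM in pregnant libraries (median 16.8), from 8.54 to 19.1 in pseudopregnant libraries (median 14.9) and from 13.9 to 21.5 in virgin libraries (median 18.3). Ugt2b34 thus stood far above its neighbours in every library, and the groups overlapped in all 4 genes. Of the 50-base stretches of Ugt2b5, 41.7% occur in other genes' transcripts, so its level is uncertain.

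The SULTs were dominated by 3 genes. Sult1d1, which in mice sulfates catecholamines, ran from 327 to 497 CPM in pregnant libraries (median 363), from 196 to 388 in pseudopregnant libraries (median 352) and from 301 to 436 in virgin libraries (median 374). Sult1b1, which takes thyroid hormones and phenols, ran from 282 to 459 CPM in pregnant libraries (median 382), from 211 to 501 in pseudopregnant libraries (median 325) and from 312 to 431 in virgin libraries (median 338). Sult2b1, which sulfates cholesterol and pregnenolone, ran from 169 to 297 CPM in pregnant libraries (median 225), from 112 to 315 in pseudopregnant libraries (median 151) and from 159 to 288 in virgin libraries (median 209). The lowest values of all 3 were pseudopregnant libraries. Sult1c2 was scarce and ran from 1.34 to 2.57 CPM in pregnant libraries (median 1.85), from 1.51 to 3.34 in pseudopregnant libraries (median 2.24) and from 0.832 to 5.77 in virgin libraries (median 3.32). Sult1a1, the general phenol enzyme, ran from 1.07 to 2.60 CPM in pregnant libraries (median 1.33), from 0.145 to 2.40 in pseudopregnant libraries (median 1.18) and from 0.832 to 3.61 in virgin libraries (median 2.53). Pseudopregnant replicate 4 held 0.145 CPM of it, from 5 counts, 24.9-fold below virgin replicate 4. Without that library the range was 4.34-fold. Sult1b1 and Sult1d1 lie next to each other on chromosome 5, 22.5 kb beyond the last Ugt2 gene, and Sult1e1, the estrogen enzyme 6.94 kb past Sult1d1, had no count in any library.

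The Sult1d1 promoter is shown for its HNF1 motif (the first run of capitals). The second run is the xenobiotic response element core on the opposite strand.
Sult1d1 (chr5:87568957-87569256, minus strand): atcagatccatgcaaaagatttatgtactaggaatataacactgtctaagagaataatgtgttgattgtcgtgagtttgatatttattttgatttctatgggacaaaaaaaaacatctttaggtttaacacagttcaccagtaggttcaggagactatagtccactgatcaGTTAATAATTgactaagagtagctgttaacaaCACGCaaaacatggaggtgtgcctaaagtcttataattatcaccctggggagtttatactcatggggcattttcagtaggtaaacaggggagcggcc
Sult1b1, with a similar level, had no HNF1 motif in either of its promoters.

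The 27 members below the filter reached at most 13 counts in a library, and 12 had no count in any. They were 16 SULTs, 5 Ugt1a genes, 4 Ugt2 genes and the GSTs Gsto2 and Gstt4. A count of 0 allows up to 3 counts, for counting error only. Before TMM scaling this is 0.0805 to 0.12 CPM depending on the library. All 8 Sult2a genes, the bile acid and DHEA enzymes in a stretch of 870.3 kb on chromosome 7, were among the 27, and 7 of them had no count. With no low-count filter 15 of the 27 were fitted, and 0 had an adjusted p under 0.05 in the 3 comparisons. Of these 15, Ugt1a2 alone had an unadjusted p under 0.05 (0.014, pseudopregnant against virgin mice, adjusted p = 0.67, edgeR). It had at most 5 counts in any library.

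The first comparison asked how the enzymes of pregnant mice differ from those of virgin mice. The alpha GSTs had the most negative fold changes of the GST classes, with Gsta3 at -0.85 (SE 0.40) on the log2 scale, Gsta4 at -0.69 (SE 0.25), Gsta1 at -0.60 (SE 0.34) and Gsta2 at -0.49 (SE 0.35). The abundant genes of other classes and families had fold changes nearer 0, with Ugt2b34 at 0.23 (SE 0.18), Sult1d1 at 0.067 (SE 0.16), Sult1b1 at 0.069 (SE 0.19), Gstp1 at -0.16 (SE 0.27) and Gsto1 at -0.051 (SE 0.12). No difference passed: 0 of 38 members and 0% of the 14675 genes tested had an adjusted p under 0.05 in edgeR's quasi-likelihood test with Benjamini-Hochberg adjustment, and 0 members did with DESeq2 or limma-voom. At an unadjusted p under 0.05 there were 3 members (7.89%), all lower in pregnant libraries, where 3.68% of all genes were called, 2.02% higher and 1.66% lower. Groups did not overlap in 0 members and in 0.0681% of all genes.

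Gsta4 had edgeR's smallest p among the members (unadjusted p = 0.014, adjusted p = 0.89). All 6 pregnant libraries lay below the virgin median, and the fold change was -0.78 to -0.57 when 1 library was left out, with an unadjusted p under 0.05 each time. It was -0.44 (unadjusted p = 0.0073) with the length slope as a covariate and -0.68 (unadjusted p = 0.025) with the villus-minus-crypt score. Sult1c2 was next, at -0.77 (SE 0.34) with an unadjusted p of 0.035, and all 6 pregnant libraries lay below the virgin median. Its p was above 0.05 without pregnant replicate 2, 3 or 6 or virgin replicate 2, 4 or 6, and 0.18 with limma-voom. Without the lowest length slope library of each group, a choice made after seeing the data, Sult1c2 was at -0.55 (unadjusted p = 0.13). For Gsta3 the unadjusted p was 0.045, again with 6 of 6 below the virgin median, and it stayed under 0.05 in 8 of the 18 fits that left out 1 library. The adjusted p of both was 0.89. The count of 3 members was 1 without pregnant replicate 3, pregnant replicate 6 or virgin replicate 4, where Gsta4 alone was left. Of all genes 1.79, 3.04 and 3.09% were called in these fits (0.898, 1.31 and 1.41% lower).

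Of the 20 tested GSTs, 19 had a negative fold change, with a median of -0.17, where 51.5% of all genes were negative and the median over all genes was -0.0076. All 4 alpha genes (median -0.64), all 7 mu genes (median -0.22) and all 3 pi genes (median -0.16) were negative, and Gstt3 was the exception. The 3 MGSTs were negative (median -0.11), and 2 of them turned positive with the length slope as a covariate (median 0.068). The 4 tested Ugt1a genes were positive in 3 cases (median 0.11), against 1 with the length slope as a covariate (median -0.17). Ugt1a1 was at 0.36 (SE 0.46) and Ugt1a7c at 0.15 (SE 0.41), and without the lowest length slope library of each group they were at 0.31 and 0.081. The Ugt2 genes were positive in 2 of 6 (median -0.088). The 15 tested members outside the naming rule lay between -0.49 and 0.0029, 14 of them negative. The SULTs were positive in 3 of 5 (median 0.049), against 0 of 5 with the villus-minus-crypt score in the model (median -0.11). Genes of a class share ancestry and in part reads, so they are not independent. Summed GST levels were 1071 to 1726 CPM in pregnant (median 1288), 791 to 1698 in pseudopregnant (median 1156) and 1199 to 1997 in virgin libraries (median 1468). Over the same comparison 20 of 21 absorptive markers were positive (median 0.43), and all 24 proliferation, 12 goblet and 15 enteroendocrine markers were negative (medians -0.21, -0.29 and -0.38). In bulk libraries such as these, fewer cells of a type and less RNA per cell cannot be told apart. With the villus-minus-crypt score in the model 20 of 20 GSTs were negative (median -0.19), and with the length slope 15 of 20 were (median -0.15). Summed goblet markers were 5329 to 8842 CPM in pregnant, 6399 to 12140 in pseudopregnant and 5654 to 15850 in virgin libraries. Summed enteroendocrine markers were 361 to 642 CPM in pregnant, 303 to 789 in pseudopregnant and 330 to 972 in virgin libraries. The part of both lists in the enzyme levels was not tested.

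**Figure D3:**
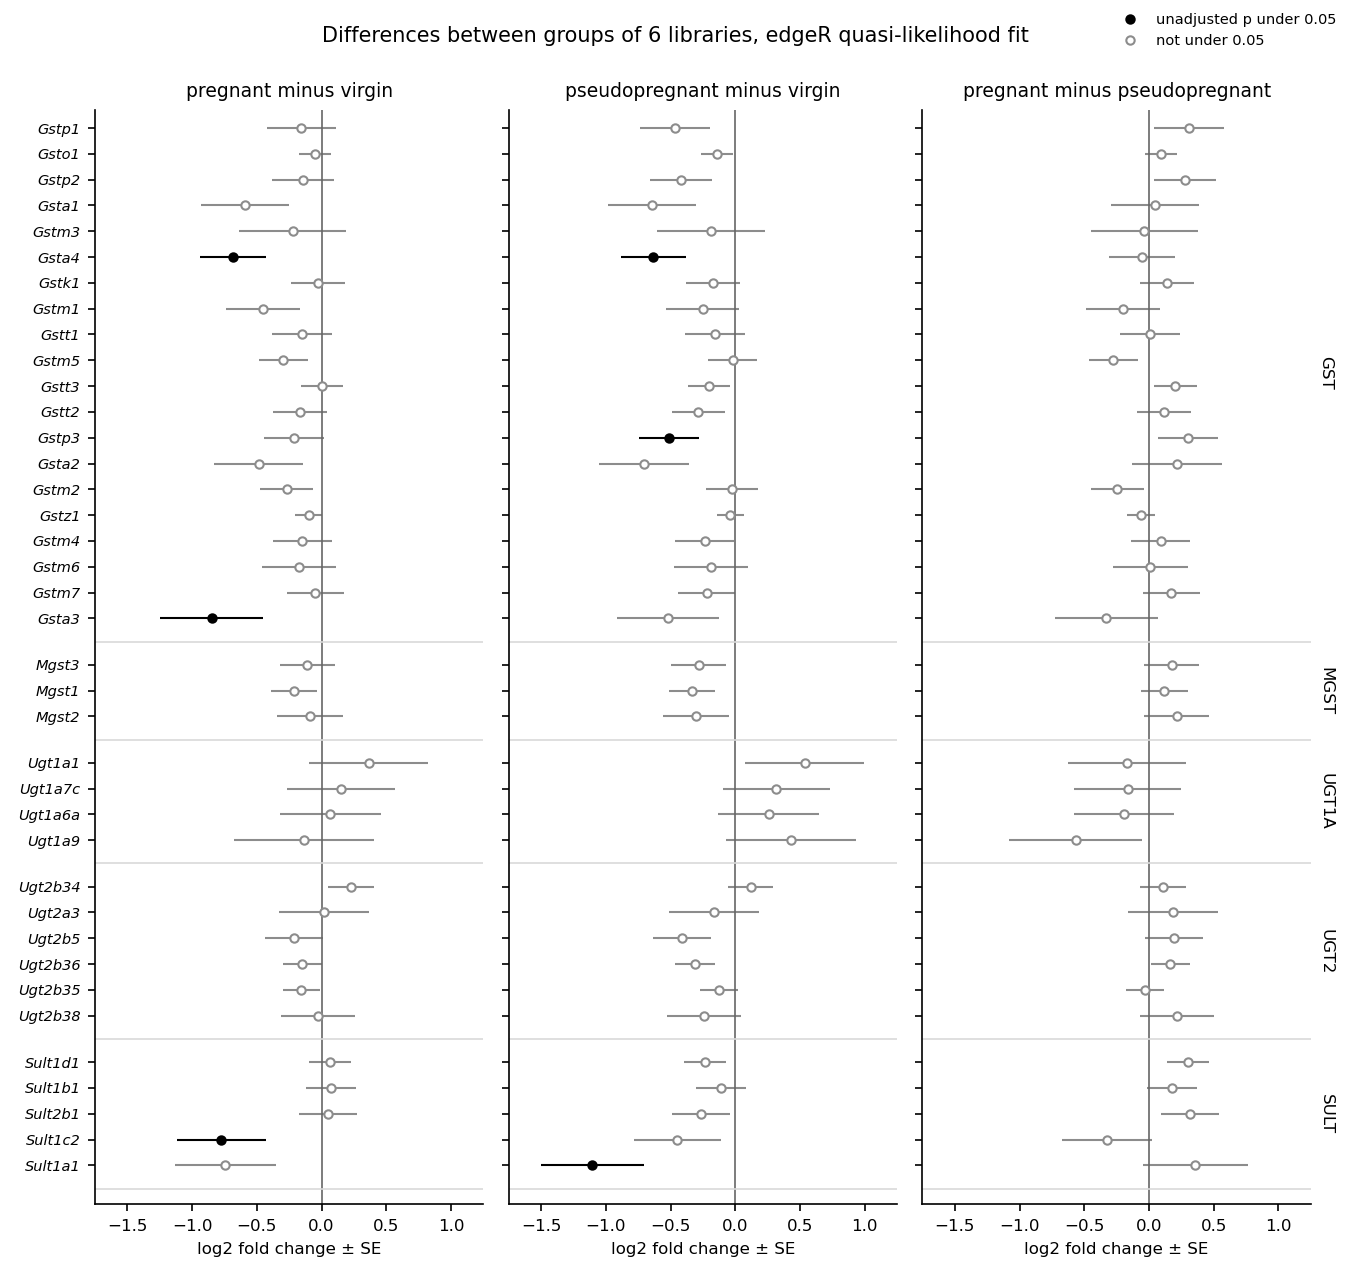
Log2 fold change ± SE from the edgeR fit for the 38 tested conjugating enzymes in the 3 comparisons (panels), ordered by family and level, with filled points for an unadjusted p under 0.05. The alpha class GSTs and Sult1a1 are among the points farthest to the left in both panels against virgin libraries, and no point passed adjustment.

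The second comparison set pseudopregnant beside virgin mice. It shares the virgin libraries with the first, so the pair of comparisons is not independent. Sult1a1 was lowest, at -1.10 (SE 0.40), and the alpha GSTs followed with Gsta2 at -0.71 (SE 0.35), Gsta1 at -0.64 (SE 0.34), Gsta4 at -0.63 (SE 0.25) and Gsta3 at -0.52 (SE 0.39). The pi class stood at -0.51 (SE 0.23) for Gstp3, -0.47 (SE 0.27) for Gstp1 and -0.42 (SE 0.24) for Gstp2. Ugt2b34 was at 0.12 (SE 0.18), Sult1d1 at -0.23 (SE 0.16) and Sult2b1 at -0.27 (SE 0.22). The Ugt1a genes were positive, with Ugt1a1 at 0.54 (SE 0.46) and Ugt1a7c at 0.32 (SE 0.41). In edgeR 0 of 38 members and 0% of all genes passed an adjusted p of 0.05, and 0 members did with DESeq2 or limma-voom. At an unadjusted p under 0.05 there were 3 members (7.89%), all lower, where 9.37% of all genes were called, 7.36% higher and 2.01% lower. The share of members called in either direction was below that of all genes, and the share called lower was above it. Groups did not overlap in 0 members and in 0.0681% of all genes.

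Sult1a1 had the smallest p (unadjusted p = 0.012, adjusted p = 0.52, edgeR), and all 6 pseudopregnant libraries lay below the virgin median. Its fold change was -1.43 to -0.86 when 1 library was left out, with an unadjusted p under 0.05 each time, and -0.74 (unadjusted p = 0.066) with the length slope as a covariate. Gsta4 had 5 of 6 libraries below the virgin median (unadjusted p = 0.022) and lost that p when pseudopregnant replicate 5, virgin replicate 1 or virgin replicate 2 was left out. With the length slope its fold change was -0.29 (unadjusted p = 0.078). Gstp3 also had 5 of 6 below (unadjusted p = 0.039), and with the length slope it was at -0.18 (unadjusted p = 0.33). Its p was above 0.05 without pseudopregnant replicate 2, 3, 4 or 5 or virgin replicate 1 or 2. The adjusted p of both was 0.52. The count of 3 moved to 12 when pseudopregnant replicate 6 was omitted, to 11 for pseudopregnant replicate 1 and to 5 for virgin replicate 6, in each case all lower, and to 1 when either pseudopregnant replicate 5 or virgin replicate 1 was left out. The 12 and 11 members were 31.6 and 28.9% of those tested. Of all genes 15.4% were called without pseudopregnant replicate 6 (4.76% lower) and 22.9% without pseudopregnant replicate 1 (10.6% lower), so the background moved too. Without virgin replicate 6, pseudopregnant replicate 5 and virgin replicate 1 it was 7.32, 3.66 and 5.34% (1.47, 0.894 and 1.48% lower). With the length slope as a covariate 0 members and 2.12% of all genes were called.

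**Figure D4:**
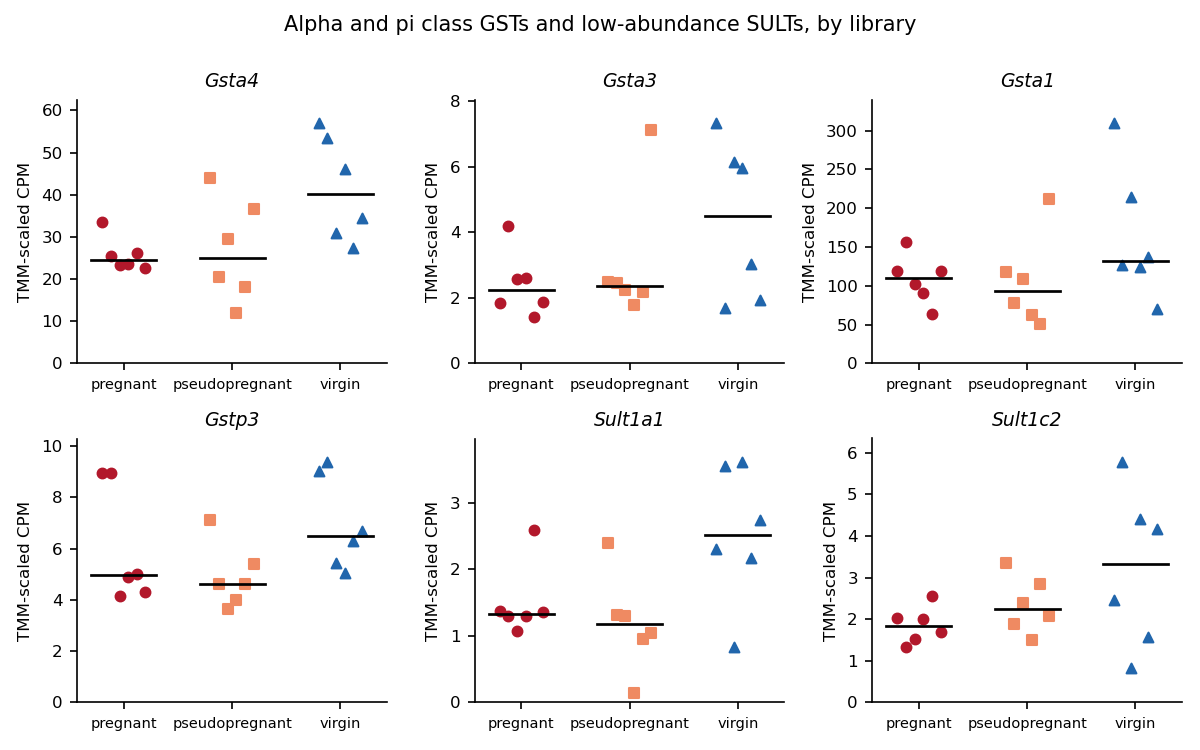
TMM-scaled CPM by library (vertical axes, from 0) of 5 conjugating enzymes with an unadjusted p under 0.05 against virgin mice and of Gsta1, the most abundant alpha class gene, in pregnant, pseudopregnant and virgin mice, with a bar at each median. The virgin median is the highest in every panel, and the groups overlap in every panel.

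All 20 GSTs were negative in pseudopregnant libraries (median -0.23), where 49.4% of all genes were negative and the median over all genes was 0.0045. The 3 MGSTs were negative as well, with Mgst1 at -0.33 (SE 0.18), Mgst2 at -0.30 (SE 0.25) and Mgst3 at -0.28 (SE 0.21). So were 5 of 6 Ugt2 genes (median -0.20) and 5 of 5 SULTs (median -0.27), and all 4 Ugt1a genes were positive (median 0.37). Summed SULT levels were 817 to 1228 CPM in pregnant (median 979), 563 to 1112 in pseudopregnant (median 830.1) and 859 to 1138 in virgin libraries (median 912). The tested GSTs have a median exonic length of 1538 bases, against 3782 over all tested genes, and the length slope had its highest median in the pseudopregnant group. With the length slope as a covariate 14 of 20 GSTs were negative (median -0.18), the MGST median was 0.0038, and the Ugt1a genes turned to 4 of 4 negative (median -0.18). The alpha class stayed at 4 of 4 negative (median -0.45, and -0.64 without the covariate). Without the lowest length slope library of each group, a choice made after seeing the data, Ugt1a1 was at 0.50 and Ugt1a7c at 0.28, still positive. In this comparison all 10 Paneth markers were negative (median -0.34), as were 13 of 15 enteroendocrine and 9 of 12 goblet markers, while 17 of 21 absorptive markers were positive. Summed Paneth markers were 8106 to 34070 CPM in pregnant, 9983 to 19060 in pseudopregnant and 3455 to 33740 in virgin libraries, and their part in the enzyme levels was not tested. The 15 tested members outside the naming rule lay between -0.71 and -0.020.

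The third comparison, of pregnant with pseudopregnant mice, bears on the presence of embryos. Sult1d1 was at 0.30 (SE 0.16), Sult2b1 at 0.32 (SE 0.22), Gstp1 at 0.31 (SE 0.27), Ugt2b34 at 0.11 (SE 0.18), Gsta4 at -0.055 (SE 0.25) and Ugt1a1 at -0.17 (SE 0.46). For Sult2b1 and Mgst3 all 6 pregnant libraries lay above the pseudopregnant median, though the groups overlapped. In edgeR 0 members passed an adjusted p of 0.05 (0% of all genes), and 0 had an unadjusted p under 0.05, against 2.35% of all genes, 0.763% higher and 1.59% lower. DESeq2 and limma-voom also gave 0 at both thresholds. The smallest unadjusted p was 0.078, for Sult1d1 (adjusted p = 0.92). It was under 0.05 without pseudopregnant replicate 3, as was that of Gstm5 without pregnant replicate 1 and of Sult2b1 without pseudopregnant replicate 1, 1 member each time. Of all genes 5.20, 1.95 and 10.6% were called in these fits. Of the 20 GSTs 13 were positive (median 0.067), and of the SULTs 4 of 5 (median 0.30), where 48.4% of all genes were positive. The Ugt1a genes were 4 of 4 negative (median -0.18) and, with the length slope as a covariate, 1 of 4 negative (median 0.11). Without the lowest length slope library of each group Ugt1a1 was at -0.19 and Ugt1a7c at -0.20. The median over all genes was -0.0083. Groups did not overlap in 0 members and in 0.0273% of all genes.

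Sorted epithelium mixes absorptive villus cells with dividing crypt cells, and libraries of 1 group differ in that mix. The slope of each enzyme on the villus-minus-crypt score was therefore fitted within groups, with no conjugating enzyme in the score. 3 members rose with it past an adjusted p of 0.05 (7.89% of members, against 24.1% of all genes, 11.0% of them rising). They were Ugt2b34 at 0.27 (SE 0.085, adjusted p = 0.028) log2 per unit of the score, Sult1b1 at 0.30 (SE 0.094, adjusted p = 0.028) and Sult1d1 at 0.24 (SE 0.078, adjusted p = 0.033). Their share is below that of all genes. Ugt2b34 was highest in pregnant replicate 3, Sult1b1 in pseudopregnant replicate 3 and Sult1d1 in pregnant replicate 3, each the highest-scoring library of its group. The calls depended on single libraries: the count was 0 without pregnant replicate 3 (15.8% of all genes called) or virgin replicate 3 (10.5%). It was 1 without pseudopregnant replicate 3 (19.9%) or pregnant replicate 5 (19.9%). Without replicate 3 of all 3 groups it was 0 of 38 (0% of all genes), with slopes of 0.30, 0.27 and 0.24 for the 3 genes, and standard errors of 0.18, 0.18 and 0.16. With the length slope as a further covariate 12 members were called, 10 of them rising, and 46.5% of all genes.

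**Figure D5:**
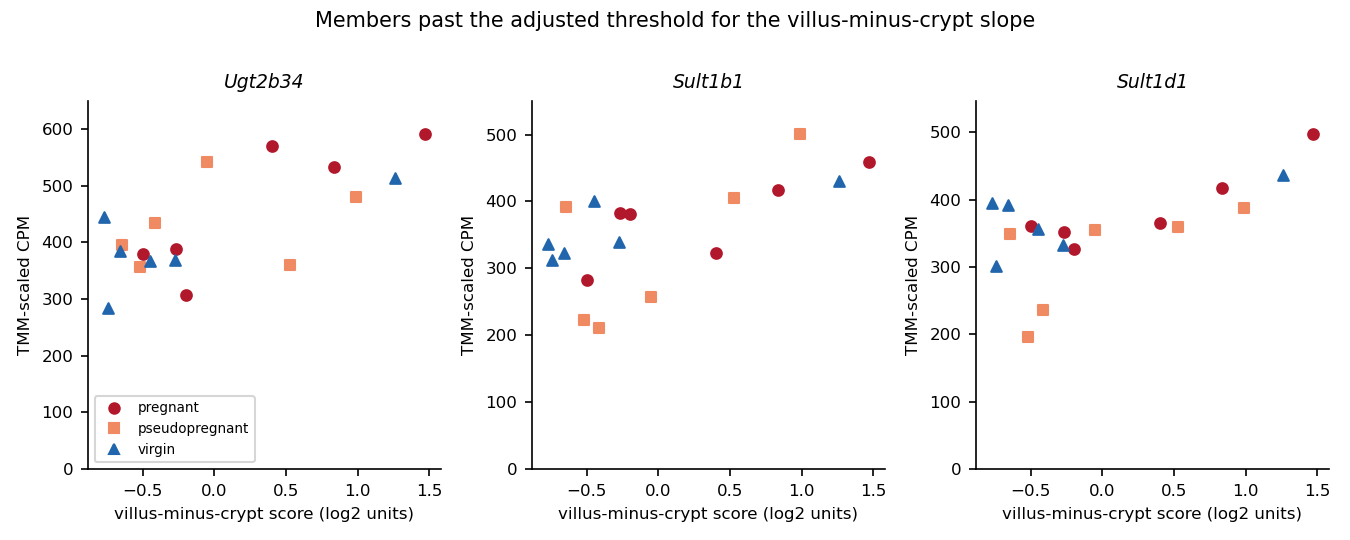
TMM-scaled CPM of Ugt2b34, Sult1b1 and Sult1d1 (vertical axes, from 0) against the villus-minus-crypt score of each library in log2 units (horizontal axis), by group. Replicate 3 of each group lies farthest right, at 1.47 (pregnant), 0.99 (pseudopregnant) and 1.26 (virgin), and is the highest library of its group in every panel except for the pseudopregnant group in Ugt2b34.

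No other tested member passed. Gstp3 had a slope of -0.26 (SE 0.14, adjusted p = 0.18), Gstm5 of -0.26 (SE 0.10, adjusted p = 0.079) and Ugt2b35 of -0.21 (SE 0.076, adjusted p = 0.054), all negative, while Gstt1 was at 0.33 (SE 0.12, adjusted p = 0.059) and Sult2b1 at 0.29 (SE 0.12, adjusted p = 0.094). Gsta4 was at -0.0089 (SE 0.17, adjusted p = 0.98), Gsto1 at 0.028 (SE 0.073, adjusted p = 0.82) and Gstp1 at 0.072 (SE 0.16, adjusted p = 0.79). The other alpha class slopes were 0.085 (SE 0.21, adjusted p = 0.81) for Gsta1, 0.11 (SE 0.21, adjusted p = 0.76) for Gsta2 and 0.086 (SE 0.25, adjusted p = 0.84) for Gsta3. Along the same score all 10 Paneth markers fell (median -0.79), and 7 of 10 stem cell markers fell. Their part in the slopes was not tested.

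Supply of cofactors, regulators and exporters was read from 7 lists of 91 genes, 86 of them tested. In the 3 comparisons 0 of the 86 passed an adjusted p of 0.05. At an unadjusted p under 0.05 there were 1 higher and 1 lower in pregnant against virgin libraries (2.33%, against 3.68% of all genes): the exporter Abcb1b at 0.67 (SE 0.31) and the aldo-keto reductase Akr1b8, a target of NRF2, at -1.05 (SE 0.42). In pseudopregnant against virgin libraries 3 were higher and 3 lower (6.98%, against 9.37% of all genes), among them the lipid-sensing receptor Ppara at 0.79 (SE 0.25), the intestinal regulator Cdx2 at -0.39 (SE 0.17), malic enzyme Me1 at -0.60 (SE 0.25), and Chac1 and Chac2, which break down glutathione, at 1.37 (SE 0.55) and -0.41 (SE 0.17). Pregnant against pseudopregnant libraries gave 2 calls (2.33%, against 2.35% of all genes): 1 higher, Chac2 at 0.42 (SE 0.17), and 1 lower, Ppara at -0.63 (SE 0.25). Medians over the 86 genes were 0.063, -0.0062 and 0.078 in the 3 comparisons.

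Along the villus-minus-crypt score 24 of the 86 rose and 6 fell past the adjusted threshold, where 11.0 and 13.2% of all genes did. The median slope over all genes was -0.0085. Without the highest-scoring library of each group 0% of all genes passed, and with the replicate number as a block 0% did. None of these calls held in either fit. Of the 7 genes that supply UDP-glucuronic acid, 7 had a positive slope and 4 rose, among them the phosphoglucomutase Pgm2 at 0.36 (SE 0.058) and Ugdh, the UDP-glucose dehydrogenase that makes the cofactor, at 0.31 (SE 0.062). For the sulfate donor 3 of 10 rose, including the PAPS synthase Papss2 at 0.36 (SE 0.061) and the anion exchanger Slc26a6 at 0.31 (SE 0.063). Of the genes that remove the conjugates 2 of 5 rose and 2 fell, and those that fell were Gusb, the lysosomal glucuronidase, at -0.29 (SE 0.053) and the sulfatase modifier Sumf2 at -0.48 (SE 0.075). Glutathione synthesis and breakdown were divided, with 6 of 18 rising, led by the glutathione hydrolase Ggt1 at 0.49 (SE 0.069) and the oxoprolinase Oplah at 0.46 (SE 0.063), and 3 falling. Among regulators 4 of 18 rose and 0 fell, including the xenobiotic receptor gene Nr1i2 (PXR) at 0.19 (SE 0.046). Of the exporters 2 of 11 rose, Abcb1a at 0.39 (SE 0.12) and Abcg2 at 0.26 (SE 0.088), and of the NRF2 targets 4 of 20 rose and 1 fell.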

How the data were processed

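RNA was poly(A)-selected and made into strand-specific libraries, per the labels' protocols. Per the submitters' processing notes, the build was GRCm38 and the tools included HISAT2 2.0.4 and featureCounts of Subread 2.0.0, besides FastQC 0.11.5 and DESeq2 1.24.0. The strand setting and annotation release used in counting were not stated in the sources used here. The deposited values are raw counts per gene, 1 table per library. Gene names came from GENCODE M21 (47310 of 47729 identifiers matched).

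Counts of 18 libraries, 6 per group and 24946836 to 37285510 counts each, were filtered (filterByExpr, minimum count 10, minimum total 15), scaled by TMM and fitted in edgeR 4.0.16 (R 4.3.3) with 1 mean per group. Two-sided quasi-likelihood tests were adjusted by Benjamini-Hochberg over 14675 genes. DESeq2 1.42.0, limma-voom (limma 3.58.1), other filters, other scaling, covariates, a replicate block and the omission of libraries were tried. The length slope used genes with a mean of at least 20 CPM. The fits were tested on simulated data, where 95, 94 and 93% of genes changed 4-fold were recovered in the comparisons of pregnant with virgin, pseudopregnant with virgin and pregnant with pseudopregnant libraries, and 57, 61 and 52% of those changed 2-fold. For the villus-minus-crypt slope 84% of genes with the larger simulated slope and 42% with the smaller were recovered. Without further covariates, the slopes of Ugt2b34, Sult1b1 and Sult1d1 were below the smaller simulated slope. The shares recovered therefore do not describe slopes of their size. Genes were drawn independently, so library differences that many genes share, such as the length slope, were not simulated.

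Named with values were the 4 members of each family with the highest mean CPM per kb, and every member with an unadjusted p under 0.05 in a group comparison or an adjusted p under 0.05 for the slope. Of the other lists, the 2 genes of smallest p were eligible. Other members named, such as Gsta2 and Gstm3, were chosen after their values were seen. The members and lists were chosen with earlier results of these data known.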

Additional observations from a re-analysis of the deposited data

Results flagged for a closer look

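For 23 named members, the 5 family sums and the sum over all members, 87 groups of 6 libraries were examined for a single library standing apart by Dixon's criterion (gap to the nearest library over the range of the group, above 0.625). Chance flags about 1 group in 20, and 5 were flagged. Gsta4 in pregnant replicate 1 had 33.47 CPM, against 26.16 in the next library of its group. Sult1a1 in pregnant replicate 5 had 2.599 CPM, against 1.376 in the next. Ugt2b5 in pregnant replicate 6 had 16.24 CPM, against 26.08 in the next. Gsta3 in pseudopregnant replicate 6 had 7.133 CPM, against 2.469 in the next. Mgst3 in virgin replicate 2 had 430.8 CPM, against 300.4 in the next.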

How the results depend on the processing

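The count of members with an adjusted p under 0.05 was 0 in all 3 group comparisons under every alternative run, including each omission of 1 library (0 to 0). The count at an unadjusted p under 0.05 was 3 for pregnant against virgin mice. It was 1 with limma-voom (3.6% of all genes) and 1 with the length slope as a covariate (4.65%). When 1 library was left out it was 1 to 4, all lower (at most 13.2% of all genes, 0.783 to 5.79% called lower). For pseudopregnant against virgin mice it was 3 (9.37% of all genes, 2.01% called lower). It became 5 with DESeq2 (10.2%, 2.50% called lower) and 5 with no low-count filter (7.16%, 1.74% called lower), 1 of them higher. With limma-voom it was 7, all lower (7.54%, 2.56% called lower), and with the length slope as a covariate 0 (2.12%). Without the lowest length slope library of each group it was 9, all lower (17.6%, 5.71% called lower). It was 1 to 12, all lower, when 1 library was left out (3.66 to 22.9%, 0.826 to 10.6% called lower). For pregnant against pseudopregnant mice it was 0, and it became 1 with the length slope as a covariate (2.92%), 3 without the lowest length slope library of each group (6.39%), and 0 to 1 when 1 library was left out (0.813 to 10.6%). The slope count of 3 became 5 with DESeq2 (28.9% of all genes), 12 with the length slope as a covariate (46.5%), 0 without the highest villus-minus-crypt library of each group (0%), and 0 to 4 when 1 library was left out (10.5 to 27.2%). Omitting the lowest length slope or highest villus-minus-crypt libraries was chosen after seeing the data.

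Whether replicate numbers pair the libraries was not settled: same-numbered libraries' deviations correlated at -0.483 to 0.662. Some libraries, among them replicate 3 in every comparison, correlated best with their own number, and others did not. With the replicate number as a block the unadjusted counts were 1, 9 and 1 in the 3 comparisons, in the order above, where 6.67, 13.5 and 4.21% of all genes were called. The 9 members were all lower (23.7% of those tested), where 5.14% of all genes were called lower. The slope count was 0, with 0% of all genes. The slopes with the block were 0.51 for Ugt2b34, 0.085 for Sult1b1 (unadjusted p = 0.68) and 0.35 for Sult1d1, against 0.27, 0.30 and 0.24 without it. Over 2742 single values of 110 results (log2 fold changes, slopes and family sums), 2521 kept direction and side of the threshold, 53 passed it newly, 60 no longer passed it and 108 changed sign. The 108 belonged to 43 results, and 0 of them had an unadjusted p under 0.05 before or after the change. Adjusted p ranged over the alternatives from 0.321 to 1 for Gsta4 and Sult1c2 and from 0.436 to 1 for Gsta3 (pregnant against virgin), and from 0.171 to 1 for Sult1a1, Gsta4 and Gstp3 (pseudopregnant against virgin). The cause of these shifts was not tested. Depth limits the 27 members below the filter.

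With the length slope as a covariate, pregnant minus virgin fold changes changed sign to 0.068 for Mgst2, 0.085 for Mgst3, -0.24 for Ugt1a6a, -0.11 for Ugt1a7c, -0.092 for Ugt2a3, 0.035 for Gsto1 and 0.0033 for Gstp2. The pseudopregnant minus virgin fold changes in this fit changed sign to 0.036 for Mgst2, 0.0038 for Mgst3, -0.14 for Ugt1a1, -0.34 for Ugt1a6a, -0.21 for Ugt1a7c, -0.058 for Ugt1a9, -0.085 for Ugt2b34 and 0.011 for Gsto1. The pregnant minus pseudopregnant fold changes in this fit changed sign to 0.16 for Ugt1a1, 0.11 for Ugt1a6a and 0.11 for Ugt1a7c. The villus-minus-crypt slopes in this fit changed sign to 0.047 for Mgst1, 0.15 for Mgst2 and 0.12 for Gsta4. With the villus-minus-crypt score in the model, pregnant minus virgin fold changes changed sign to -0.10 for Sult1b1, -0.077 for Sult1d1, -0.11 for Sult2b1 and -0.13 for Ugt2a3. The pregnant minus pseudopregnant fold changes in this fit changed sign to -0.0021 for Ugt2b34. With the replicate block, pregnant minus virgin fold changes changed sign to -0.042 for Ugt1a6a and -0.027 for Ugt2a3. The pregnant minus pseudopregnant fold changes in this fit changed sign to 0.016 for Gsta4. The villus-minus-crypt slopes in this fit changed sign to 0.40 for Sult1a1, 0.17 for Ugt1a6a, 0.36 for Ugt1a9, -0.16 for Gsta1, -0.19 for Gsta3, -0.081 for Gsto1, -0.12 for Gstp1 and -0.057 for Gstp2. With limma-voom, pregnant minus pseudopregnant fold changes changed sign to 0.072 for Gsta4. The villus-minus-crypt slopes in this fit changed sign to 0.027 for Mgst2 and 0.012 for Gsta4. Without the lowest length slope library of each group, pregnant minus virgin fold changes changed sign to -0.082 for Ugt2a3. The pregnant minus pseudopregnant fold changes in this fit changed sign to 0.050 for Gsta4. The villus-minus-crypt slopes in this fit changed sign to 0.027 for Mgst2. Without the highest villus-minus-crypt library of each group, pregnant minus pseudopregnant fold changes changed sign to 0.00094 for Gsta4. The villus-minus-crypt slopes in this fit changed sign to 0.37 for Sult1a1, 0.18 for Sult1c2, -0.035 for Ugt1a7c, -0.074 for Ugt2b36, -0.019 for Gsta1, -0.018 for Gsta3 and 0.26 for Gsta4. When 1 library was left out, pregnant minus virgin fold changes changed sign within ranges of -0.26 to 0.013 for Mgst2, -0.19 to 0.045 for Mgst3, -0.018 to 0.12 for Sult1d1, -0.043 to 0.14 for Sult2b1, -0.11 to 0.32 for Ugt1a6a, -0.084 to 0.35 for Ugt1a7c, -0.48 to 0.066 for Ugt1a9 and -0.17 to 0.20 for Ugt2a3. The pseudopregnant minus virgin fold changes changed sign within ranges of -0.36 to 0.021 for Ugt2a3. The pregnant minus pseudopregnant fold changes changed sign within ranges of -0.39 to 0.043 for Ugt1a1, -0.34 to 0.0086 for Ugt1a7c, -0.10 to 0.37 for Gsta1, -0.55 to 0.12 for Gsta3 and -0.21 to 0.15 for Gsta4. The villus-minus-crypt slopes changed sign within ranges of -0.081 to 0.035 for Mgst1, -0.054 to 0.073 for Mgst2, -0.0033 to 0.16 for Mgst3, -0.37 to 0.091 for Sult1a1, -0.37 to 0.032 for Sult1c2, -0.48 to 0.090 for Ugt1a9, -0.025 to 0.10 for Ugt2b36, -0.0041 to 0.14 for Ugt2b5, -0.017 to 0.28 for Gsta1, -0.078 to 0.29 for Gsta3, -0.086 to 0.12 for Gsta4, -0.018 to 0.10 for Gsto1 and -0.0033 to 0.17 for Gstp1.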
